A study of Homo sapiens with 12 samples.

Results

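The 35 genes described here are known targets of the transcription factor p53, taken as a fixed list of symbols and matched exactly to the gene symbols of the count tables, where all 35 were found among 60835 symbols. The list was followed across poly(A) RNA sequencing of LNCaP cells, an androgen-sensitive human prostate cancer line, after knockdown of FOXA1 or of TRIM28. FOXA1 is a pioneer factor that opens chromatin at luminal prostate genes, while TRIM28 silences genes to which KRAB zinc finger proteins bring it and has also been described as a partner of MDM2 in lowering p53. The 12 libraries formed 4 groups with 3 biological replicates each: cells given shRNA against FOXA1, cells given the negative control shRNA of that arm, cells given shRNA against TRIM28, and cells given the negative control shRNA of that second arm. Titles of the knockdown libraries read SH control and the table columns read SI, while the treatment labels give shRNA against the named gene, and the cell line label is spelled LACAP cell. No label gives the time after knockdown or the hairpin sequences. All libraries carry the same batch label, so no batch could be separated.

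p53 is a transcription factor that is kept low in unstressed cells by the ubiquitin ligase MDM2, itself a p53 target, and that accumulates after DNA damage, ribosomal stress or oncogene activity. It binds a response element made of a repeated short motif and raises genes that stop the cell cycle, promote apoptosis, aid DNA repair and adjust metabolism. Cell cycle genes are lowered indirectly, through the p21 protein encoded by CDKN1A and the DREAM repressor complex.

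Sequences that match the p53 response element near a transcription start are shown for the members in which a match was found. Promoter windows from RefSeq (GRCh38.p14), 250 bases before to 50 bases after a start, were found for 25 of the 35 members, 38 windows in all. Each window was searched on both strands for the p53 consensus, which consists of 2 copies of a 10-base motif with a spacer of at most 1 base, and up to 2 mismatches were allowed over the 20 motif bases. Such a match was present in 5 of the 38 member windows (13.2%), belonging to 4 genes, and in 1.34% of 35116 windows of the same length over all genes. In the lines below, capitals mark the matched motif bases and lower case marks flanking or spacer bases, all on the plus strand of GRCh38.
MDM2, chr12:68808893-68808972, in an intron: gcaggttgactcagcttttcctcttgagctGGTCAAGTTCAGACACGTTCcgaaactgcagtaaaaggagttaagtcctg
FAS, chr10:88991309-88991328, in an annotated exon: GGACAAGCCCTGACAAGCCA
AEN, chr15:88621306-88621325, in an annotated exon: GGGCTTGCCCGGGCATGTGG
DDB2, chr11:47214979-47214999, in an annotated exon: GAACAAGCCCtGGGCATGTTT
The match in DDB2 had 0 mismatches and a spacer of 1 base, and the matches in MDM2, FAS and AEN had 2 mismatches and a spacer of 0 bases. A match without mismatches was present in 7 of the 35116 windows. MDM2, FAS and AEN were higher in the TRIM28 knockdown, where 20 of the 34 tested members were. DDB2 was not called in either knockdown, as described below. A match in these letters is a description and does not show binding. The responses of members with and without a match were not compared, and 10 members had no window.

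Levels are given as CPM, read counts relative to library size, scaled by the TMM factors of the 6 libraries of a knockdown and its control. Log2 fold changes are knockdown over control with their standard error (SE), and a gene is called at an adjusted p under 0.05 in edgeR's quasi-likelihood test over all genes of the pair. Libraries held 12256092 to 15152890 counts. FOXA1 stood at 29.2%, 28.6% and 29.2% of its control mean in the 3 libraries of its knockdown, and TRIM28 stood at 32.0%, 28.5% and 13.99% in the 3 libraries of the TRIM28 knockdown. Replicate 3 of the TRIM28 knockdown stood apart: the chi-square per degree of freedom between it and replicates 1 and 2 was 22.6 and 20.4, against 3.73 between replicates 1 and 2 and 2.94 to 5.73 within the other groups. The stromal markers COL1A1, COL1A2, DCN and LUM summed to 255.1 CPM (here scaled by the library total alone) in that library, against 28.4 and 34.4 CPM in the other 2 libraries of the knockdown and 26.2 to 31.1 CPM in its controls, and none of the 4 was at 0 in any library. The 3 stromal markers that could be tested were not called, and their part in the results was not tested. The 9 luminal prostate markers summed to 2550 to 2874 CPM in the TRIM28 knockdown, against 4097 to 4143 CPM in its controls, and to 2648 to 2714 CPM in the FOXA1 knockdown, against 4058 to 4151 CPM in its controls, with none at 0. The 3 basal markers summed to 2.93 to 3.495 CPM in the FOXA1 knockdown, against 0.300 to 0.998 CPM in its controls. Of these only KRT14 was tested (log2 fold change 3.05), with counts of 37, 36 and 48 in the knockdown, against 5, 6 and 3. It entered the test through the group in which it was high. KRT5 had counts of 9, 2 and 2 in that knockdown, against 1, 5 and 1. TP63 had 0, 1 and 0, against 1, 4 and 0. In the TRIM28 knockdown the 3 basal markers summed to 0.778, 0.323 and 2.366 CPM, against 0.320 to 0.432 CPM in its controls. TP63 was at 0 in all 3 knockdown libraries and in replicates 2 and 3 of those controls. The 2 endothelial markers summed to 0.545, 0.566 and 1.224 CPM in the TRIM28 knockdown, against 0.0713 to 0.504 CPM in its controls, and leukocyte markers to at most 0.301 CPM in any library. The part of these markers in the results was not tested. TRIM28 itself was at 87.1%, 89.4% and 86.9% of its control mean in the FOXA1 knockdown. FOXA1 was below its control mean in every library of the TRIM28 knockdown, at the levels given below with the replicates. Results of the TRIM28 pair are given with and without replicate 3 of the knockdown. In bulk RNA, fewer cells of a type and less RNA per cell cannot be told apart.

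In the control libraries, levels per gene length from the deposited FPKM values spanned a wide range. GDF15, a secreted stress cytokine, was the highest at 314.5 FPKM on average over the 6 controls (282.5 to 369.5). CCNG1 followed at 126 FPKM, AMZ2 at 48.8 FPKM and TNFRSF10B at 46.2 FPKM. CDKN1A stood at 30.3 FPKM and MDM2 at 18.6 FPKM. The lowest were TIGAR at 0.366 FPKM, PINCR at 0.320 FPKM, FAS at 0.273 FPKM and TNFRSF10C at 0.0256 FPKM. This order depends on the length used, which for FAS was 16484 bases. By reads FAS stood above PINCR, with counts of 48, 85 and 55 in the FOXA1 controls, against 9, 3 and 14. TNFRSF10C, a decoy receptor for TRAIL, did not reach 10 counts in any library and was not tested, which left 34 members in each pair. PINCR reached 10 counts in 3 of 3 knockdown libraries and in 1 of 3 control libraries of each pair, so it entered the tests through the group in which it was high.

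FOXA1 knockdown raised part of the list and lowered a smaller part. Of 34 tested members, 15 were higher (44.1%) and 5 were lower (14.7%), and the other 14 were not called. Over all genes tested in that pair, 26.1% were called higher and 26.3% lower. The median log2 fold change of the members was 0.17, against -0.02 over all 14953 genes. The libraries of the groups did not overlap for 17 members with higher values and 5 with lower values, where 29.2% of all genes did so in each direction. Leaving out each library in turn gave 14 to 16 higher and 4 to 6 lower members. In a fit of all 12 libraries together, 9 members were higher and 3 lower, where 19.9% and 19.4% of all genes were called, and MDM2, BBC3, TNFRSF10B, XPC, AEN, TRIAP1, POLK and CCNG1 were no longer called.

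TRIM28 knockdown raised most of the tested list. Of 34 tested members, 20 were higher (58.8%) and 1, GDF15, was lower (2.94%), and 13 were not called. Over all genes tested in that pair, 13.3% were called in each direction. The median log2 fold change of the members was 0.92, against 0.00 over all 14981 genes. The libraries of the groups did not overlap for 22 members with higher values and 1 with lower values, where 21.8% and 22.1% of all genes did so. Without replicate 3 of the knockdown 30 members were higher and 1 lower, the median was 1.07, and 21.5% and 23.5% of all genes were called higher and lower. The 30 included all 20 and added BBC3, BAX, TNFRSF10A, TNFRSF10B, GADD45A, RRM2B, CCNG1, FBXO22, AMZ2 and RPS27L, and only DDB2, PLK3 and POLK stayed uncalled. Leaving out any other library of the pair gave 12 or 13 higher members, with GDF15 lower in every case. The higher calls of CDKN1A, FAS, SESN1, TP53I3, BTG2, XPC, FDXR and SPATA18 were lost in some of those fits. A fit of all 12 libraries gave 27 higher members and 1 lower, where 17.9% and 18% of all genes were called. Scaling by library totals alone gave 25 higher members and moved the calls over all genes to 2597 higher and 1502 lower, against 1994 higher and 1999 lower with TMM.

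**Figure D1:**
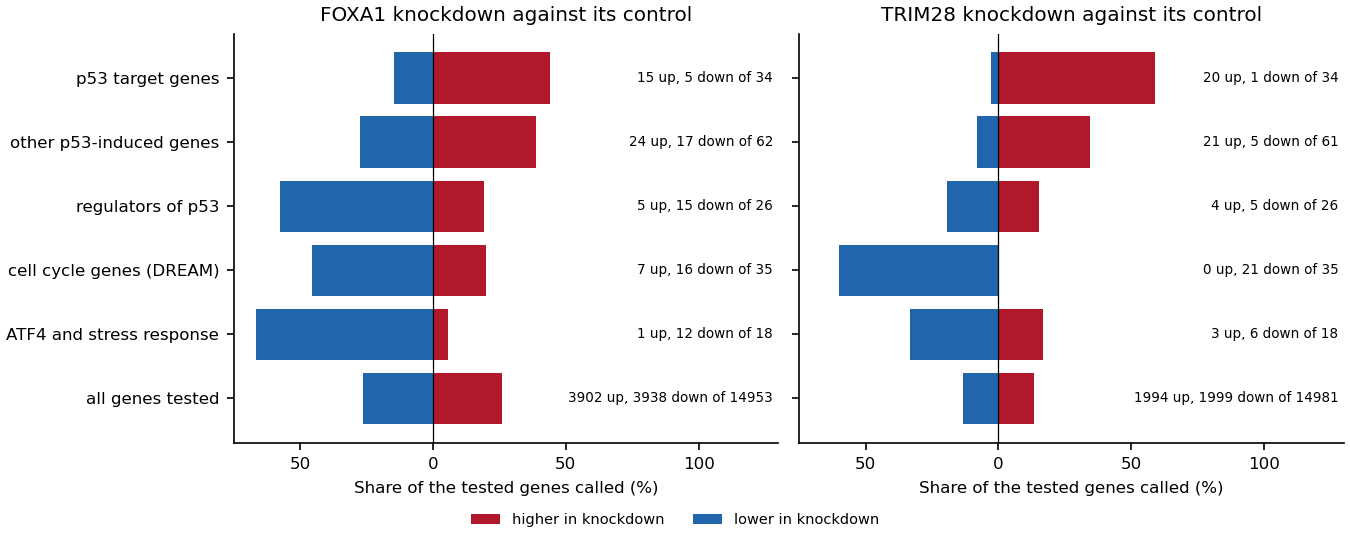
Share of the tested genes of each list called higher (red, to the right) or lower (blue, to the left) in each knockdown, in percent of the genes tested, with the counts written beside each bar. Of 34 p53 target genes, 15 were higher and 5 lower in the FOXA1 knockdown and 20 were higher and 1 lower in the TRIM28 knockdown, where 26.1% and 13.3% of all genes were higher.

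Among the genes that stop the cell cycle, CDKN1A, which encodes the cyclin-dependent kinase inhibitor p21 (ENSG00000124762, GRCh38 chromosome 6, 36676460 to 36687337, plus strand), rose in both knockdowns. It had 229, 222 and 217 CPM in the FOXA1 knockdown, against 70.5, 70.1 and 62.5 CPM in its controls. It had 849, 662 and 165 CPM in the TRIM28 knockdown, against 73.1, 73.6 and 69.4 CPM in its controls. In each pair all knockdown libraries lay above all controls, and replicate 3 of the TRIM28 knockdown was far lower than replicates 1 and 2. The log2 fold change was 1.72 (SE 0.06, adjusted p = 1.35e-20 in edgeR) with FOXA1 and 2.96 (SE 0.67, adjusted p = 0.0363) with TRIM28. Without replicate 3 of the TRIM28 knockdown it was 3.38 (adjusted p = 6.31e-17), which was the single fit of the 6 leaving out a library in which the gene was called, the highest adjusted p of the others being 0.119. The gene overlaps the antisense transcript DINOL, and no label gives the strand setting of the counts, so reads of such partners cannot be told apart. The same holds for MDM2 with CPM, TNFRSF10B with RHOBTB2, XPC with LSM3, TP53I3 with FAM228B, RPS27L with LACTB, FBXO22 with NRG4, TP53INP1 with NDUFAF6 and POLK with COL4A3BP.

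BTG2, an antiproliferative cofactor of the CCR4-NOT deadenylase, had 180, 167 and 67.8 CPM in the TRIM28 knockdown, against 49.2, 51.0 and 53.7 CPM in its controls (edgeR: log2 fold change 1.43, SE 0.35, adjusted p = 0.0296, and 1.75 without replicate 3). In the FOXA1 pair it had 55.3, 59.2 and 48.4 CPM in the knockdown, against 49.1, 51.0 and 56.4 CPM in its controls, and the groups overlapped. GADD45A, a stress sensor that acts in arrest and repair, fell with FOXA1: it had 36.0, 42.8 and 39.7 CPM in the FOXA1 knockdown, against 59.4, 55.3 and 58.0 CPM in its controls, all knockdown libraries below all controls (log2 fold change -0.55, SE 0.07, adjusted p = 3.94e-07). In the TRIM28 pair it had 73.6, 82.3 and 60.1 CPM in the knockdown, against 50.3, 63.0 and 50.7 CPM in its controls, with overlap (log2 fold change 0.40, SE 0.13, adjusted p = 0.0512), and it was called higher without replicate 3 (0.51, adjusted p = 1.53e-05). PLK3, a stress-responsive polo-like kinase, was lower in the FOXA1 knockdown at 3.77, 3.66 and 4.12 CPM, against 6.26, 5.69 and 4.79 CPM in its controls (log2 fold change -0.54, SE 0.19, adjusted p = 0.0208). That call was lost in 3 of the 6 fits that left out a library. In the TRIM28 pair PLK3 had 6.85, 5.74 and 4.87 CPM in the knockdown, against 5.62, 5.19 and 6.503 CPM in its controls, and was not called with or without replicate 3 (0.02 and 0.12 on the log2 scale). Its relative PLK2 had 19.3, 13.9 and 16.1 CPM in the TRIM28 knockdown, against 7.57, 7.52 and 6.75 CPM in its controls (edgeR: log2 fold change 1.17, adjusted p = 0.0012, and 1.18 without replicate 3), and its lowest knockdown value was in replicate 2. With FOXA1 PLK2 was not called. CCNG1, a cyclin that recruits a phosphatase to MDM2, averaged 277 ± 7.8 CPM in the FOXA1 knockdown and 309 ± 5.8 CPM in its controls (SD, n = 3 each; log2 fold change -0.16, adjusted p = 0.00478 by edgeR). With TRIM28 its log2 fold change was 0.30 (adjusted p = 0.291) and without replicate 3 it was 0.51 (adjusted p = 2.38e-08), replicate 3 lying below all controls at 265.6 CPM, against 302.8 to 338.3 CPM in the controls.

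**Figure D2:**
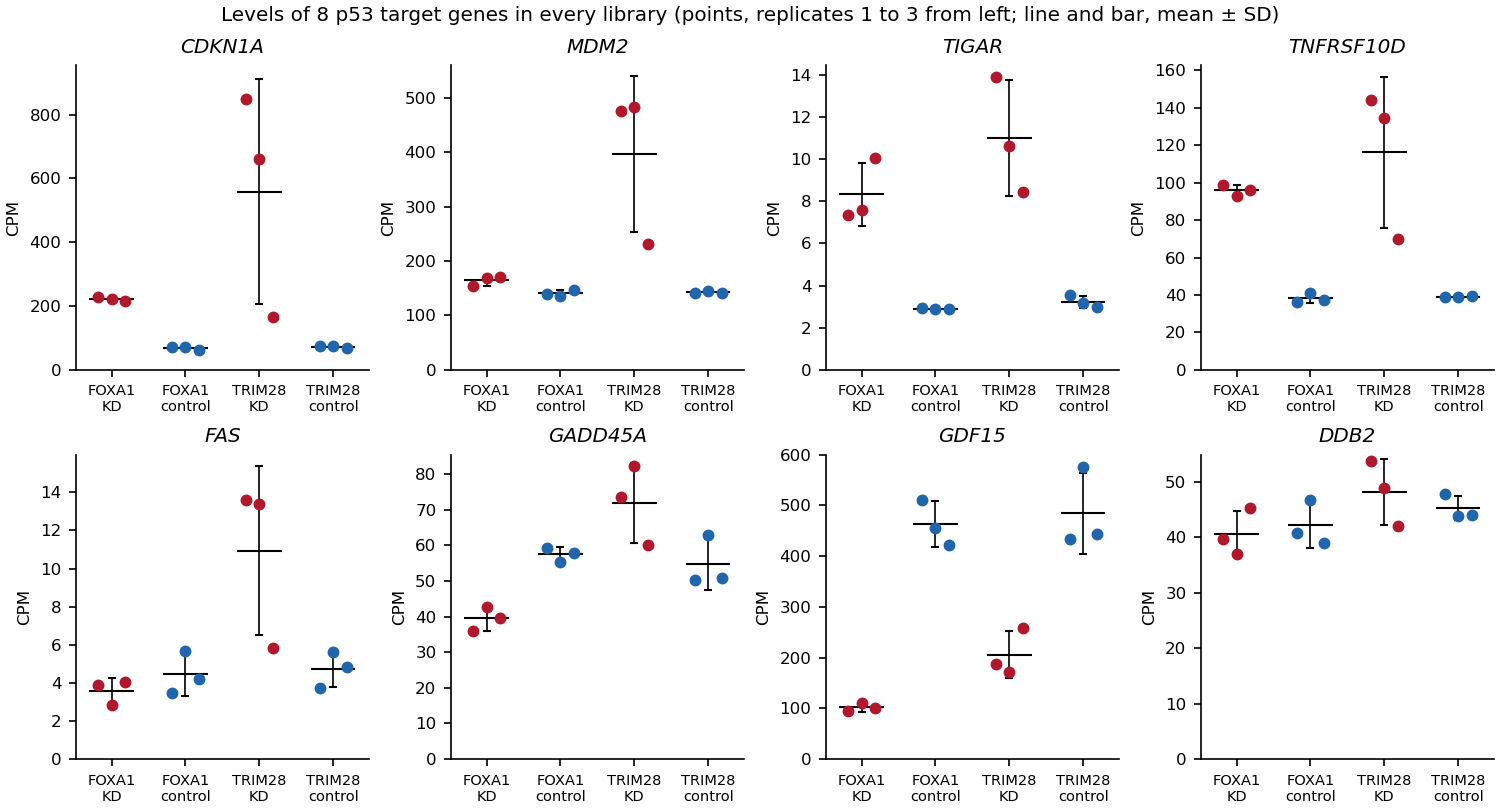
Level of 8 members in each of the 12 libraries, in CPM on a linear axis that starts at 0, with knockdown libraries in red and controls in blue; points are replicates 1 to 3 from left to right, the line is the group mean and the bar is ± SD. CDKN1A, MDM2, TNFRSF10D and FAS lie lower in replicate 3 of the TRIM28 knockdown than in replicates 1 and 2, GDF15 lies below its controls in both knockdowns, and DDB2 overlaps its controls in both.

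Of the genes that feed back on p53, MDM2 and PPM1D were higher in both knockdowns. MDM2, the ubiquitin ligase that degrades p53 (ENSG00000135679, GRCh38 chromosome 12, 68808177 to 68845544, plus strand), had 475, 484 and 231 CPM in the TRIM28 knockdown, against 141, 145 and 142 CPM in its controls. In the FOXA1 pair it had 154, 168 and 171 CPM in the knockdown, against 139, 136 and 147 CPM in its controls. The groups did not overlap in either pair, but the gap was small with FOXA1. The log2 fold change was 1.48 (SE 0.26, adjusted p = 0.00713) with TRIM28 and 0.22 (SE 0.05, adjusted p = 0.000869) with FOXA1 by edgeR, and 1.74 (adjusted p = 4.75e-23) with TRIM28 without replicate 3. PPM1D, the phosphatase WIP1 that switches off p53 signalling, had 44.0, 44.9 and 39.6 CPM in the FOXA1 knockdown, against 30.8, 29.4 and 30.2 CPM in its controls. It had 67.6, 59.5 and 46.0 CPM in the TRIM28 knockdown, against 28.4, 32.5 and 31.4 CPM in its controls. Both rises were without overlap, by 0.51 (SE 0.08) with FOXA1 and 0.91 (SE 0.14) with TRIM28 on the log2 scale, the TRIM28 value being 1.04 without replicate 3. FBXO22, an F-box protein, averaged 86.2 ± 16 CPM in the TRIM28 knockdown and 67.0 ± 0.90 CPM in its controls (SD, n = 3 each) and was not called (adjusted p = 0.0552 by edgeR), but was without replicate 3 (log2 fold change 0.50, adjusted p = 8.78e-07).

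PHLDA3, which opposes AKT at the membrane, had 32.1, 26.6 and 29.6 CPM in the FOXA1 knockdown, against 15.8, 17.5 and 17.7 CPM in its controls. In the TRIM28 pair it had 70.0, 56.3 and 30.04 CPM in the knockdown, against 17.2, 16.3 and 13.6 CPM in its controls. It was higher in both without overlap, with log2 fold changes of 0.80 (SE 0.10) and 1.73 (SE 0.29), the second being 2.00 without replicate 3.

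Among the apoptosis genes, TNFRSF10D was the death receptor family member called in both knockdowns. TNFRSF10D, a decoy receptor for TRAIL (ENSG00000173530, GRCh38 chromosome 8, 23135588 to 23164027, minus strand), had 98.7, 93.1 and 96.0 CPM in the FOXA1 knockdown, against 36.3, 41.1 and 37.1 CPM in its controls. It had 144, 135 and 70.0 CPM in the TRIM28 knockdown, against 39.1, 38.8 and 39.4 CPM in its controls. The rises did not overlap the controls and were 1.33 (SE 0.07, adjusted p = 3.92e-16) and 1.57 (SE 0.25, adjusted p = 0.00411) on the log2 scale by edgeR, the second being 1.83 without replicate 3. TNFRSF10B, the signalling receptor DR5, was higher with FOXA1 at 202 ± 5.4 CPM, against 180 ± 8.5 CPM in its controls (SD, n = 3 each; log2 fold change 0.17, adjusted p = 0.00514 by edgeR). With TRIM28 it averaged 253 ± 52 CPM in the knockdown and 196 ± 8.1 CPM in its controls (SD, n = 3 each; log2 fold change 0.37, adjusted p = 0.0595 by edgeR, and 0.18, adjusted p = 0.0209, without replicate 3). It was 1 of 2 members that were highest in replicate 3, at 313 CPM, against 229 and 218 CPM in the other libraries of the knockdown. The signalling receptor TNFRSF10A was not called in either pair, with log2 fold changes of -0.01 with FOXA1 and 0.36 with TRIM28, and was called with TRIM28 without replicate 3 (0.48, adjusted p = 0.000505 by edgeR).

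FAS, the receptor for FAS ligand, had 13.6, 13.4 and 5.85 CPM in the TRIM28 knockdown, against 3.75, 5.64 and 4.86 CPM in its controls, so that replicate 3 lay just above the highest control (edgeR: log2 fold change 1.21, adjusted p = 0.021, and 1.5035 without replicate 3). In the FOXA1 knockdown it averaged 3.595 ± 0.66 CPM and in its controls 4.44 ± 1.1 CPM (SD, n = 3 each), with overlap and no call. FAS overlaps ACTA2 on the opposite strand. BBC3, which encodes PUMA, had 11.8, 12.4 and 11.9 CPM in the FOXA1 knockdown, against 9.63, 10.3 and 7.98 CPM in its controls (log2 fold change 0.36, SE 0.13, adjusted p = 0.0241), a call lost in 2 of the 6 fits that left out a library. In the TRIM28 pair it had 24.3, 16.6 and 10.6 CPM in the knockdown, against 11.3, 14.1 and 10.5 CPM in its controls, with overlap (log2 fold change 0.53, adjusted p = 0.18 by edgeR, and 0.77, adjusted p = 0.000166, without replicate 3). BAX, which permeabilises the outer mitochondrial membrane, averaged 66.2 ± 21 CPM in the TRIM28 knockdown and 43.1 ± 2.2 CPM in its controls (SD, n = 3 each), and was called there only without replicate 3 (log2 fold change 0.85, adjusted p = 7.32e-11 by edgeR).

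TP53INP1, a stress protein of autophagy and p53 phosphorylation, rose in both knockdowns: it had 252, 261 and 236 CPM in the FOXA1 knockdown, against 136, 141 and 155 CPM in its controls. In the TRIM28 pair it had 568, 592 and 306 CPM in the knockdown, against 161, 141 and 166 CPM in its controls. No libraries overlapped, and the log2 fold changes were 0.80 (SE 0.05) with FOXA1 and 1.65 (SE 0.24) with TRIM28, the TRIM28 value being 1.89 without replicate 3. TP53I3, a quinone oxidoreductase, was at low levels of 4.21, 2.91 and 1.54 CPM in the TRIM28 knockdown, against 0.937, 1.13 and 0.988 CPM in its controls (edgeR: log2 fold change 1.5012, SE 0.41, adjusted p = 0.0215, and 1.7953 without replicate 3). In the FOXA1 pair it had 1.06, 0.747 and 0.908 CPM in the knockdown, against 0.791, 1.00 and 0.836 CPM in its controls, with overlap. AEN, an apoptosis-enhancing nuclease, was higher in both at log2 fold changes of 0.31 (SE 0.07) with FOXA1 and 0.93 (SE 0.15) with TRIM28, or 1.08 without replicate 3. TRIAP1, which inhibits apoptosis, was higher by 0.18 (SE 0.07) with FOXA1 and 0.77 (SE 0.15) with TRIM28, or 0.93 without replicate 3, and the FOXA1 call was lost in 4 of the 6 fits that left out a library.

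Of the DNA repair genes, XPC was higher in both knockdowns and DDB2 in neither. DDB2, the damage-binding subunit that starts nucleotide excision repair and the member with a match free of mismatches, averaged 48.2 ± 5.9 CPM in the TRIM28 knockdown and 45.3 ± 2.2 CPM in its controls (SD, n = 3 each; log2 fold change 0.09, SE 0.11, adjusted p = 0.578 in edgeR, and 0.17, adjusted p = 0.113, without replicate 3). In the FOXA1 knockdown it averaged 40.6 ± 4.2 CPM and in its controls 42.2 ± 4.1 CPM (SD, n = 3 each; log2 fold change -0.06, SE 0.08, adjusted p = 0.601 in edgeR). XPC, the damage recognition partner in the same pathway, was higher in both, by 0.25 (SE 0.07) with FOXA1 and 0.84 (SE 0.21) with TRIM28 on the log2 scale, or 1.065 without replicate 3. RRM2B, the p53-inducible ribonucleotide reductase subunit, was higher with FOXA1 by 0.31 (SE 0.06, adjusted p = 3.21e-05 in edgeR), and with TRIM28 its log2 fold change was 0.36 (SE 0.12, adjusted p = 0.0509), or 0.49 (adjusted p = 3.12e-07) without replicate 3. POLK, a translesion polymerase, was lower with FOXA1 by a log2 fold change of -0.26 (SE 0.07) and was not called with TRIM28 with or without replicate 3 (-0.06 and -0.05).

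Of the metabolic and mitochondrial targets, TIGAR rose in both knockdowns and SPATA18, SESN1, SESN2 and FDXR were called with TRIM28. TIGAR, which lowers glycolytic flux and oxidative stress (ENSG00000078237, GRCh38 chromosome 12, 4307763 to 4360028, plus strand), had 7.34, 7.62 and 10.1 CPM in the FOXA1 knockdown, against 2.95, 2.88 and 2.89 CPM in its controls. In the TRIM28 pair it had 13.9, 10.6 and 8.44 CPM in the knockdown, against 3.53, 3.16 and 2.96 CPM in its controls. All knockdown libraries lay above all controls, with log2 fold changes of 1.52 (SE 0.19, adjusted p = 8.91e-08) and 1.77 (SE 0.23, adjusted p = 0.000843) by edgeR, the TRIM28 value being 1.92 without replicate 3. SPATA18, which acts in mitochondrial quality control, had 21.1, 15.2 and 3.90 CPM in the TRIM28 knockdown, against 2.52, 3.31 and 3.29 CPM in its controls, so replicate 3 lay just above the controls (log2 fold change 2.14, SE 0.56, adjusted p = 0.0287, and 2.58 without replicate 3). In the FOXA1 pair it had 2.64, 4.78 and 4.47 CPM in the knockdown, against 2.95, 2.21 and 3.04 CPM in its controls, with overlap.

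The sestrins, stress proteins that restrain mTORC1, were both higher with TRIM28. SESN1 averaged 51.3 ± 20 CPM in the knockdown and 24.0 ± 0.52 CPM in its controls (SD, n = 3 each; log2 fold change 1.10, adjusted p = 0.0241 by edgeR, and 1.38 without replicate 3). SESN2 had 114.0, 94.4 and 103.7 CPM in the knockdown, against 66.9, 72.6 and 69.2 CPM in its controls, with no overlap (edgeR: log2 fold change 0.58, adjusted p = 0.00232). The SESN2 rise was the same without replicate 3, at 0.58. Neither was called with FOXA1. FDXR, the mitochondrial ferredoxin reductase, was higher with TRIM28 by 1.10 (SE 0.28, adjusted p = 0.0262 in edgeR, and 1.38 without replicate 3) and not called with FOXA1.

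Of the remaining members, ZMAT3, a zinc finger RNA-binding protein, had 47.4, 54.2 and 52.5 CPM in the FOXA1 knockdown, against 25.2, 30.7 and 28.5 CPM in its controls. It had 130, 124 and 58.9 CPM in the TRIM28 knockdown, against 28.97, 31.0 and 29.7 CPM in its controls. Both rises were free of overlap, at log2 fold changes of 0.87 (SE 0.08) with FOXA1 and 1.80 (SE 0.28) with TRIM28, or 2.08 without replicate 3. PINCR, a p53-induced long noncoding RNA on chromosome X, had 3.04, 1.94 and 2.03 CPM in the FOXA1 knockdown, against 0.647, 0.201 and 1.06 CPM in its controls, which are counts of 46, 26 and 29, against 9, 3 and 14. It had 9.25, 8.65 and 3.49 CPM in the TRIM28 knockdown, against 0.288, 0.527 and 1.65 CPM in its controls, which are counts of 123, 110 and 43, against 4, 7 and 20. The groups did not overlap in either pair. The log2 fold changes were 1.90 (SE 0.41) with FOXA1 and 3.14 (SE 0.58) with TRIM28, or 3.47 without replicate 3, and without PINCR the higher members numbered 14 with FOXA1 and 19 with TRIM28, of 33. RPS27L, a p53-inducible relative of a ribosomal protein, and AMZ2, a metallopeptidase, were not called in either knockdown, and both were called higher with TRIM28 without replicate 3 (log2 fold changes of 1.23 and 0.43).

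GDF15, a secreted cytokine that acts on appetite through a brainstem receptor (ENSG00000130513, GRCh38 chromosome 19, 18374731 to 18389176, plus strand), fell in both knockdowns. It had 94.0, 110.0 and 100.6 CPM in the FOXA1 knockdown, against 511, 455 and 422 CPM in its controls. It had 188, 171 and 259 CPM in the TRIM28 knockdown, against 434, 576 and 444 CPM in its controls. All knockdown libraries lay below all controls in both pairs, and replicate 3 of the TRIM28 knockdown was the nearest to its controls. The log2 fold change was -2.19 (SE 0.07, adjusted p = 1.69e-12) with FOXA1 and -1.24 (SE 0.17, adjusted p = 0.00173) with TRIM28 by edgeR, and -1.44 (adjusted p = 1.65e-05) with TRIM28 without replicate 3.

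Each replicate of the TRIM28 knockdown was set against the mean of its 3 controls, on a log2 scale of CPM plus 0.5. The median over the 34 members was 1.08 in replicate 1, 0.94 in replicate 2 and 0.30 in replicate 3, while over all genes it lay between -0.02 and 0.00 in each. Replicate 1 was above all 3 controls for 32 members, replicate 2 for 31 and replicate 3 for 22, where 37.4% to 38.5% of all genes were. Replicate 3 held the lowest value of the 3 knockdown libraries for 30 of the 34 members (88.2%), where it did so for 41.2% of all genes. The exceptions were TNFRSF10B, SESN2, PLK2 and GDF15. In the FOXA1 knockdown the medians were 0.12, 0.19 and 0.16, and each library was lowest for 9 to 14 members. Replicate 3 of the TRIM28 knockdown had the lowest TRIM28 level of its group, at 13.99% of the control mean, and the highest FOXA1 level of its group, at 70.1% of the control mean, against 47.3% and 43.0% in replicates 1 and 2. The part of these levels and of the stromal markers in the lower member values was not tested.

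**Figure D3:**
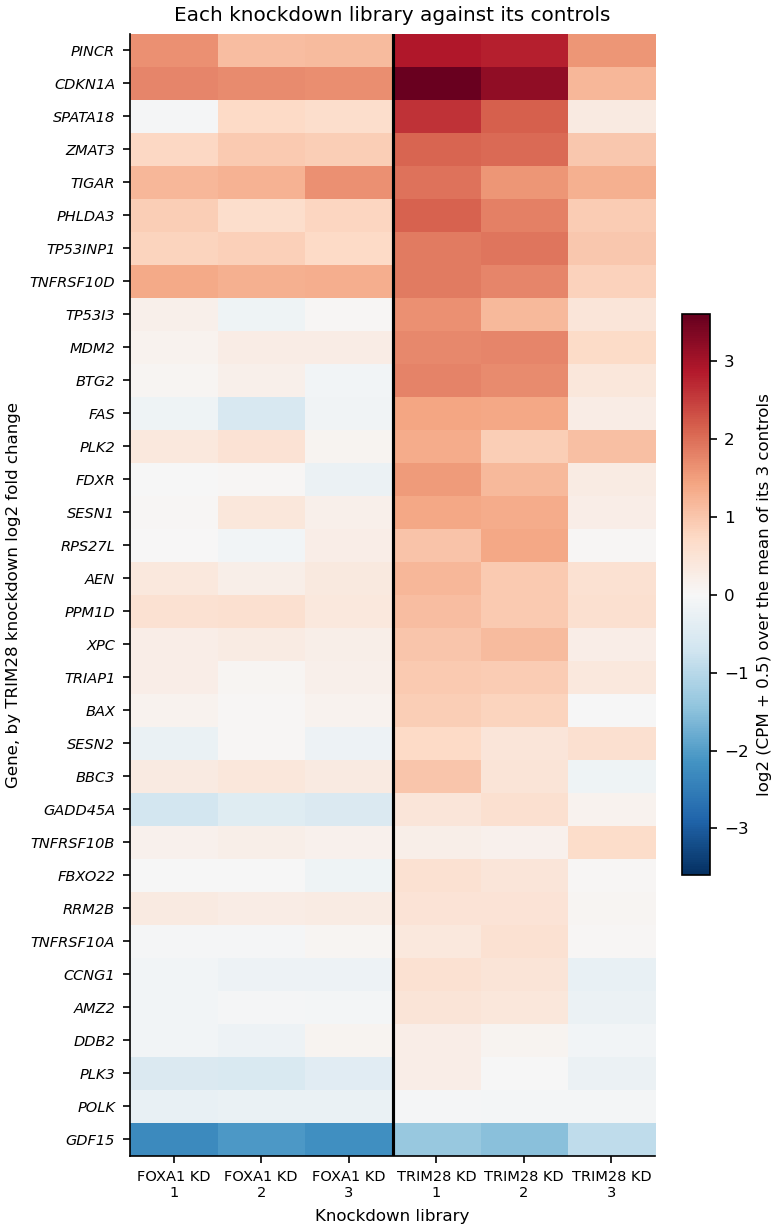
Each of the 6 knockdown libraries (columns) for the 34 tested members (rows, ordered by the TRIM28 log2 fold change), as log2 of CPM plus 0.5 over the mean of that pair's 3 controls; red is higher than control and blue is lower. Replicates 1 and 2 of the TRIM28 knockdown are red for most members, replicate 3 has the lowest of the 3 values for 30 of 34, and GDF15 is blue in all 6 libraries.

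**Figure D4:**
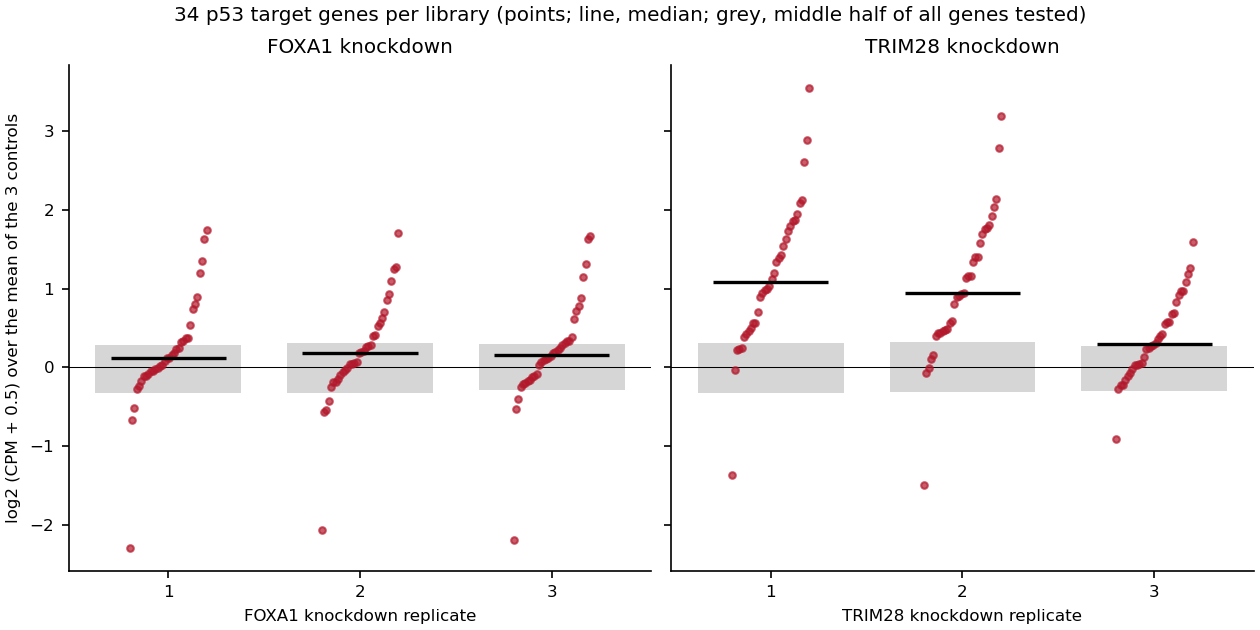
The same values by library, with a point for each member, a black line at the members' median, and a grey band from the lower to the upper quartile of all genes tested. The median line lies at 1.08, 0.94 and 0.30 in replicates 1, 2 and 3 of the TRIM28 knockdown and at 0.12, 0.19 and 0.16 in the FOXA1 knockdown.

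The knockdowns were then set side by side, with each against its own 3 control libraries. FOXA1 was also below its control mean in every library of the TRIM28 knockdown, so the arms are not fully separate changes. The part of that lower FOXA1 level in the shared calls and in the difference between the effects was not tested. Higher in both were 12 members: CDKN1A, MDM2, TNFRSF10D, TP53INP1, ZMAT3, XPC, TIGAR, AEN, PHLDA3, TRIAP1, PINCR and PPM1D. They made up 80.0% of the 15 higher members of the FOXA1 knockdown and 60.0% of the 20 of the TRIM28 knockdown. These shares include PINCR, which entered the tests of both pairs through the group in which it was high. Over the 14498 genes tested in both pairs, genes higher in both made up 37.9% of those higher with FOXA1 and 73.0% of those higher with TRIM28. GDF15 was lower in both, and no member was called in opposite directions. Over all genes 0.352% were called lower with FOXA1 and higher with TRIM28 and 0.531% the other way, so 0 of 34 is near the background. Called higher with TRIM28 and not called with FOXA1 were FAS, SESN1, SESN2, TP53I3, BTG2, FDXR, PLK2 and SPATA18. These are 8 of 34 members (23.5%), against 3.28% of all genes. Called with FOXA1 in either direction and not with TRIM28 were BBC3, TNFRSF10B, GADD45A, RRM2B, PLK3, POLK and CCNG1. These are 7 of 34 (20.6%), against 32.1% of all genes. Either contrast needs the test of the difference.

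That difference, the TRIM28 effect minus the FOXA1 effect, was above 0 for all 34 members in a fit of all 12 libraries, with a median of 0.65 on the log2 scale, against 0.00 over 15921 genes. It was above 0 for 8023 of those 15921 genes. Leaving out a library moved it across 0 for BBC3 (-0.1946 to 0.3951) and RRM2B (-0.0369 to 0.1687). The difference was called for 8 members, all with the more positive effect in the TRIM28 knockdown, where 4.59% of all genes were called higher and 5.98% lower. The 8 were FAS at 1.4998 (SE 0.42), MDM2 at 1.24 (SE 0.32), GDF15 at 0.95 (SE 0.21), GADD45A at 0.93 (SE 0.16), PLK2 at 0.79 (SE 0.24), SESN2 at 0.70 (SE 0.13), AEN at 0.61 (SE 0.18) and TRIAP1 at 0.58 (SE 0.17). For GDF15 the positive difference means a smaller fall with TRIM28. Of the 8 genes called higher with TRIM28 and not called with FOXA1, the difference was called for FAS, SESN2 and PLK2, and for SESN1, TP53I3, BTG2, FDXR and SPATA18 it was not. CDKN1A differed by 1.23 (SE 0.67, adjusted p = 0.311 in edgeR) and was not called. Without replicate 3 of the TRIM28 knockdown the difference was called for 26 members, CDKN1A included at 1.66 (adjusted p = 5.65e-12), where 8.64% of all genes were called higher and 12.7% lower. Leaving out any other library gave 3 or 4 members, of which GADD45A, SESN2 and GDF15 were called in every fit.

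**Figure D5:**
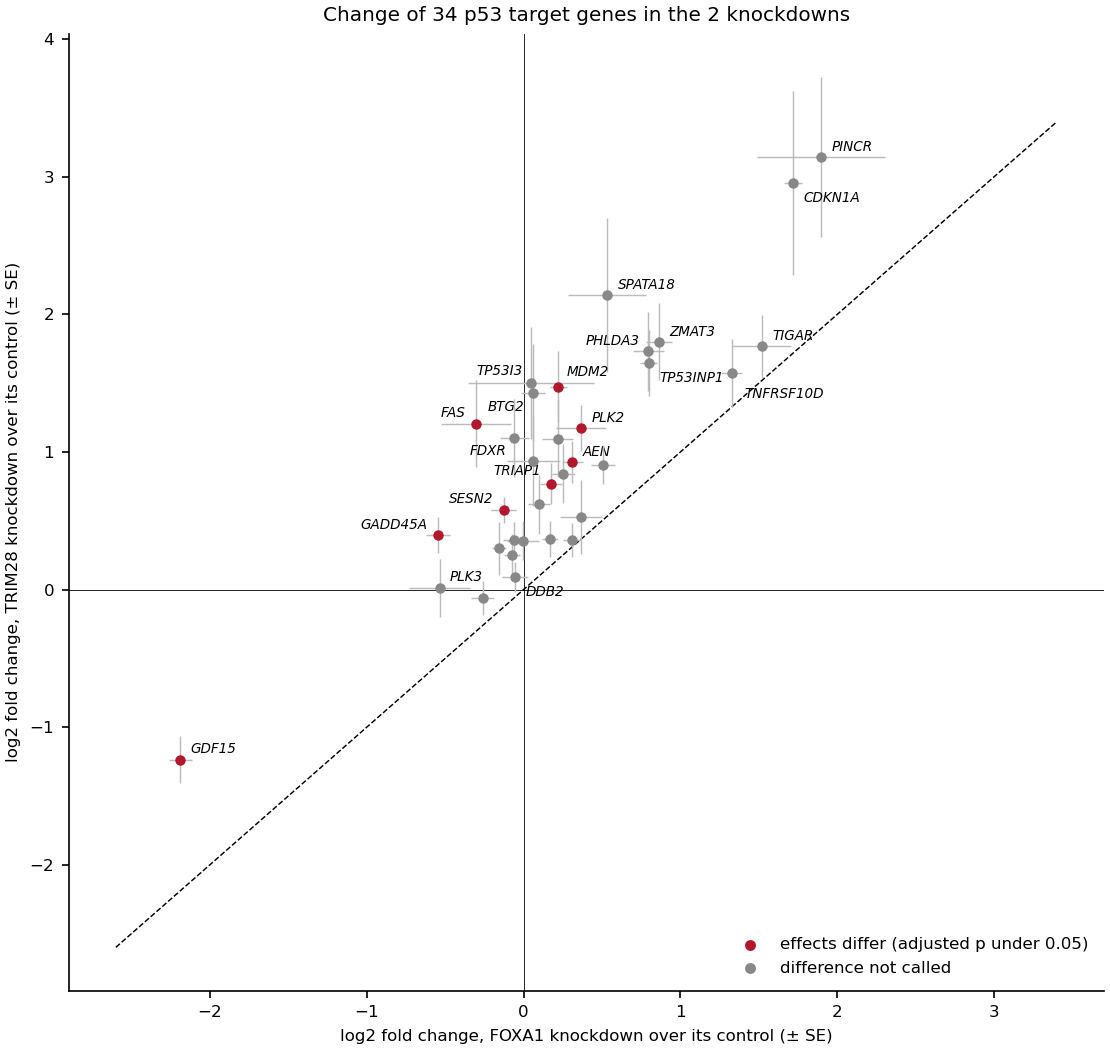
Log2 fold change of each of the 34 tested members in the FOXA1 knockdown (horizontal) and the TRIM28 knockdown (vertical), each over its own control, with bars of ± SE and a dashed line where they would be equal; red points mark the 8 members whose difference was called. All 34 points lie above the dashed line, GDF15 is negative on both axes, and GADD45A and FAS are negative on the FOXA1 axis and positive on the TRIM28 axis.

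The control groups gave the background for these comparisons. Between the controls of the FOXA1 arm and the controls of the TRIM28 arm, edgeR called 0 of 33 tested members and 0 of 14839 genes (0%), while 1 member and 635 genes had an unadjusted p under 0.05, and DESeq2 called 0 genes with 390 at an unadjusted p under 0.05. The members' median log2 difference between those control groups was -0.01.

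Other genes of the pathway were read from lists of known members. MDM4, the inhibitory partner of MDM2, was lower with FOXA1 at a log2 fold change of -0.24 (SE 0.06, adjusted p = 0.000889 in edgeR) and was not called with TRIM28 at 0.16 (SE 0.08, adjusted p = 0.158), while without replicate 3 it was called higher at 0.17 (adjusted p = 0.0382). Of 26 genes for regulators of p53, 5 were higher and 15 lower with FOXA1, and 4 were higher and 5 lower with TRIM28, or 6 and 9 without replicate 3. The regulators' shares were 19.2% higher and 57.7% lower with FOXA1, against 26.1% and 26.3% of all genes, and 15.4% higher and 19.2% lower with TRIM28, near the 13.3% of all genes called each way. Without replicate 3 they were 23.1% and 34.6%, against 21.5% and 23.5% of all genes. Genes of this and the following lists are named with their log2 fold change in parentheses. Those with the smallest p with FOXA1 were the nucleolar protein NPM1 (-0.58), the chromatin cofactor DAXX (0.67), the DNA-dependent protein kinase PRKDC (-0.42) and the DNA damage kinase ATM (-0.61). With TRIM28 they were NPM1 (-0.59), the deubiquitinase USP7 (0.38), the ribosomal protein RPL11 (-0.38), whose free form binds MDM2, and the acetyltransferase EP300 (0.35).

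A second list of 69 further p53-induced genes had 68 in the tables. Of 62 tested with FOXA1, 24 were higher (38.7%) and 17 lower (27.4%), against 26.1% and 26.3% of all genes, with a median log2 fold change of 0.01. Of 61 tested with TRIM28, 21 were higher (34.4%) and 5 lower (8.197%), against 13.3% of all genes each way, with a median of 0.23. Without replicate 3, 28 of 62 were higher (45.2%) and 9 lower (14.5%), against 21.5% and 23.5% of all genes. The smallest p with FOXA1 belonged to the transcription factor HES2 (2.14), the KIT ligand KITLG (1.58), the small GTPase RAP2B (0.85) and TNFAIP8 (-0.92). With TRIM28 it belonged to the translation regulator CPEB4 (0.85), the endocytic receptor LRP1 (1.10), SUSD6 (0.73) and CYFIP2 (1.32).

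Of 35 cell cycle genes that p53 lowers through p21 and the DREAM complex, 21 were lower (60.0%), 0 higher and 14 not called in the TRIM28 knockdown, where 13.3% of all genes were called each way, and the median log2 fold change was -0.65. Without replicate 3, 34 were lower (97.1%), where 23.5% of all genes were. In replicates 1 and 2 all 35 lay below all 3 controls, and in replicate 3 it was 23, where 38.7%, 38.4% and 38.9% of all genes lay below in replicates 1, 2 and 3. In replicate 3, 9 of the 35 lay above all 3 controls, where 37.4% of all genes did. AURKB (-1.06), E2F1 (-1.24), FOXM1 (-0.85) and MCM7 (-1.0027), which encode a mitotic kinase, factors that drive the cycle and a subunit of the replicative helicase, had the smallest p. With FOXA1 16 of the 35 were lower (45.7%) and 7 higher, against 26.3% and 26.1% of all genes, with a median of -0.11, and the smallest p belonged to RRM2 (0.87), CDC25A (1.44), MCM7 (-0.48) and CENPF (-0.39). The difference between the effects was called for 9 of the 35, all with the lower value in the TRIM28 knockdown, where 5.98% of all genes were called lower, and for 34 without replicate 3, where 12.7% were. The lists share genes: PCNA is also on the list of further p53-induced genes, and CHEK1 on the list of regulators.

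GDF15 is also raised by ATF4, the transcription factor of the integrated stress response, and the 18 genes of that response were read beside it. With FOXA1 12 of 18 were lower (66.7%) and 1 higher (5.56%), against 26.3% and 26.1% of all genes, with a median log2 fold change of -0.59, and ATF4 (-0.79), TRIB3 (-0.94), SLC7A11 (-0.79) and PHGDH (-0.61) had the smallest p. With TRIM28 6 were lower (33.3%) and 3 higher (16.7%), against 13.3% of all genes each way, with a median of -0.18. Without replicate 3, 10 were lower (55.6%) and 4 higher (22.2%), against 23.5% and 21.5% of all genes. The smallest p there belonged to VLDLR (0.89), CHAC1 (0.66), TRIB3 (-0.56) and ATF4 (-0.66). The part of ATF4 in the GDF15 values was not tested.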

How the data were processed

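Poly(A) mRNA of LNCaP cells was sequenced in 12 libraries, per the labels' protocols. The authors deposited unnormalised gene counts, with a separate table for each arm, and a table of FPKM values. Recomputing a gene's length from its counts and FPKM gave the same length in all 12 libraries (tolerance 0.001) for 13022 of 13022 genes checked. The submitters' processing notes name GRCh38 (hg38). Which aligner, counter and strand setting were used is not given in the sources used here. The 62710 lines held 60835 symbols, of which each was kept once. Some genotype labels count upward from the gene's own number across replicates, so titles and treatment labels set the groups.

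Tests used edgeR 4.0.16 in R 4.3.3 with TMM scaling, a filterByExpr filter at its minimum count of 10 and minimum total of 15, two-sided quasi-likelihood F-tests with robust estimation, and Benjamini-Hochberg adjustment over all genes tested, at 0.05. Each knockdown was fitted with its own control (6 libraries), and the difference between effects over all 12. SE is that of the fitted log2 fold change. Precision follows depth: libraries held 12256092 to 15152890 counts, and genes under about 10 counts were not tested. Alternatives were other scalings, DESeq2 1.42.0, no filter, each library left out, a replicate block and a fit of all 12 libraries. On simulated counts, 79.5% (FOXA1), 72.5% (TRIM28) and 57.5% (difference) of 200 genes changed 2-fold were recovered, among 14678, 14679 and 15554 genes. Of the genes called there, 8.62%, 6.45% and 6.5% had not been changed. All simulated replicates of a group were drawn alike. A library that stands apart from its group was not modelled, so these shares do not cover that case. Members and lists were chosen with earlier results of these data known. Values per library are given for called members with the 12 largest changes in either knockdown and, chosen after their values were seen, for FAS, PLK2 and SESN2, and up to 4 genes of each further list were named by smallest p. A gene of the regulator list is not reported here. Gene overlaps and site annotation came from GENCODE release 29.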

Additional observations from a re-analysis of the deposited data

Results flagged for a closer look

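The members below were singled out because the effect of the TRIM28 knockdown differed from the effect of the FOXA1 knockdown in a test of the difference itself, a contrast over all 12 libraries with edgeR's quasi-likelihood test. The difference on the log2 scale was 1.24 for MDM2 (adjusted p = 0.0353), 1.4998 for FAS (0.0305), 0.93 for GADD45A (0.000845), 0.70 for SESN2 (0.00275), 0.61 for AEN (0.0378), 0.79 for PLK2 (0.043), 0.58 for TRIAP1 (0.0381) and 0.95 for GDF15 (0.0158). MDM4, the partner of MDM2, differed by 0.39 (0.0161), being lower than control with FOXA1 and uncalled with TRIM28. In each of these 8 members all 3 TRIM28 knockdown libraries had a larger log2 ratio to their control mean than any FOXA1 knockdown library. The 8 were picked by a test on the same libraries, so this separation adds no support. Its share over all genes was not computed. MDM4 was called in 8 of the 12 fits that left out a library. Of the 8 members, GADD45A, SESN2 and GDF15 were called in all 12, PLK2 in 4, FAS in 3, and MDM2, AEN and TRIAP1 in 1, the fit without replicate 3 of the TRIM28 knockdown.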

How the results depend on the processing

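The member counts kept within 1.5 times under other scalings, DESeq2, no filter and a replicate block, except as follows. One fit of all 12 libraries gave 9 higher and 3 lower members with FOXA1, where 19.9% and 19.4% of all genes were called. DESeq2 called the difference higher for 13 members, where 5.79% of all genes were called higher and 8.31% lower. Scaling by library totals alone called 1126 genes higher and 751 lower for the difference, against 731 and 952 with TMM, and no filter on low counts called 3 genes higher and 5 lower between the control groups. Leaving out each library in turn gave 14 to 16 higher and 4 to 6 lower members with FOXA1 (3589 to 3799 and 3437 to 3850 of all genes), and 12 to 30 higher and 1 lower with TRIM28 (924 to 3333 and 881 to 3633 of all genes). It gave 3 to 26 higher and 0 lower members for the difference (428 to 1426 and 734 to 2102 of all genes), and 0 members, 0 to 1 genes higher and 0 to 2 genes lower between control groups. The upper ends for TRIM28 and the difference are those without replicate 3 of the TRIM28 knockdown. Of uncalled values near 0, TNFRSF10A with FOXA1 turned to 0.0013 with DESeq2 size factors and with DESeq2 and to 0.0079 with library totals, and POLK with TRIM28 turned to 0.018 with library totals. Leaving out a library moved the log2 value across 0 for TNFRSF10A (-0.0553 to 0.0578), TP53I3 (-0.0771 to 0.1725), DDB2 (-0.1279 to 0.0291), FDXR (-0.1198 to 0.0293) and RPS27L (-0.0273 to 0.2223) with FOXA1, for PLK3 (-0.1216 to 0.1233) and POLK (-0.2028 to 0.0218) with TRIM28, and for the difference of BBC3 (-0.1946 to 0.3951) and RRM2B (-0.0369 to 0.1687). The cause of these shifts was not tested. Equal replicate numbers did not pair the samples (correlations of deviations from -0.08 to 0.10). A replicate block gave 16 higher and 5 lower members with FOXA1, where 26.34% and 27.15% of all genes were called. With TRIM28 it gave 21 and 1, where 12.36% and 13.32% of all genes were called. For the difference it gave 6 higher members, where 4.06% of all genes were called higher. Low counts limit PINCR, TP53I3 and TNFRSF10C.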
